A study of Mus musculus with 6 samples.

Results

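Cholesterol and fatty acid synthesis was followed through 30 genes, chosen by name from the 54532 genes of the deposited table. The cholesterol branch holds 22 of them and the fatty acid branch 8, and all 30 passed the filter on low counts. They were read in primary neurospheres, which are floating spheres of neural progenitors, from C57BL/6 mouse embryos at E14.5 and collected on day 6 of culture. The growth medium held EGF and bFGF at 20 ng/ml each, 2% B27 and 0.2% BSA. There were 3 libraries labelled WT (WT 3, WT 6 and WT 7) and 3 labelled Ash2l cKO (KO 1, KO 2 and KO 3), in which D6-Cre, a Cre transgene active in the dorsal forebrain, drives a conditional deletion of Ash2l. ASH2L is a core subunit of the complexes that methylate lysine 4 of histone H3. The labels do not say whether the WT embryos carried Cre or floxed alleles, nor whether embryos were pooled, and they name both the dorsal cortex and the walls of the lateral ventricles as the source. Whether the libraries of a group are separate embryos or cultures is also not stated, and the p-values speak only of the spread among these 6 libraries, which may be technical.

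Cells build cholesterol from acetyl-CoA through mevalonate, squalene and lanosterol, and build fatty acids from the same acetyl-CoA through malonyl-CoA. Both branches are driven by the SREBP transcription factors, membrane proteins that are cut and released to the nucleus when sterols run low. SREBP2, the product of Srebf2, mainly drives cholesterol genes, and SREBP1, the product of Srebf1, mainly fatty acid genes. The developing brain makes its own cholesterol, since the blood-brain barrier keeps out that of the blood, and dividing cells and myelinating oligodendrocytes need much of it.

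Total counts ran from 16764480 in KO 1 to 21983659 in WT 7, and a count of 3 reads corresponded to 0.142 to 0.173 CPM (counts scaled to a common library size). Ash2l averaged 113 ± 3.55 CPM over the WT libraries and 95.9 ± 8.41 CPM over the KO libraries (SD, n = 3 each), and its log2 fold change of -0.24 missed the threshold (edgeR quasi-likelihood test, adjusted p = 0.119). The count covers the whole gene and does not measure the deleted exons, which the sources used here do not give. Neural stem cell markers were present in both groups, at a summed 5104 to 6905 CPM across WT and 4794 to 7311 CPM in KO, although 5 of 12 fell, Hes5 by 2.97 and Pax6 by 1.24 on the log2 scale, and 1 rose, Nes by 2.21. The number that fell was 3 without WT 6, WT 7, KO 1 or KO 2. Over all tested genes 15.5% fell and 13.5% rose. Y-linked reads were found almost wholly in WT 7, with 1657 reads of Ddx3y there, 12 in KO 1 and none in the other 4 libraries. Xist, the RNA of the inactive X chromosome, had 11 reads in WT 7 and at least 23632 in each other library. By these reads WT 7 was male and the other libraries female, with a trace of Y-linked reads in KO 1. Sex was thus mixed within the WT group, and results are also given without WT 7. The part of this difference in the results was not tested.

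The cholesterol branch leaned upward in the KO spheres, with modest sizes. Of 22 genes 20 had a positive log2 fold change (KO over WT), with a median of 0.49 against 0.00186 over all genes tested, and it ran from -0.40 to 1.15. Most of the genes moved together by library, so they are not 22 separate observations. Summed over the branch, WT 3 (2784 CPM) stood slightly above KO 1 (2766 CPM). Past an adjusted p of 0.05 (edgeR quasi-likelihood test with Benjamini-Hochberg adjustment over all genes), 5 genes rose: Idi1, Sqle, Cyp51, Ebp and Stard4. None of the 22 fell, either at this threshold or at an unadjusted p of 0.05 (edgeR), where 11 were higher. At that unadjusted p, 3531 of the 16606 genes tested were higher and 3720 lower. DESeq2 also called none of the 22 lower, while limma-voom called 1 lower. Of the 16606 genes tested, 29% were called in either direction, 13.5% higher and 15.5% lower, so that the count of 5 in 22 is not by itself a result about these genes. All 3 KO libraries lay above all 3 WT libraries in 11 of the 22, where 23.5% of tested genes did so, and below them in none, where 25.2% did. The members were chosen with earlier results of these data known, so these shares describe the set and are not independent support.

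**Figure D1:**
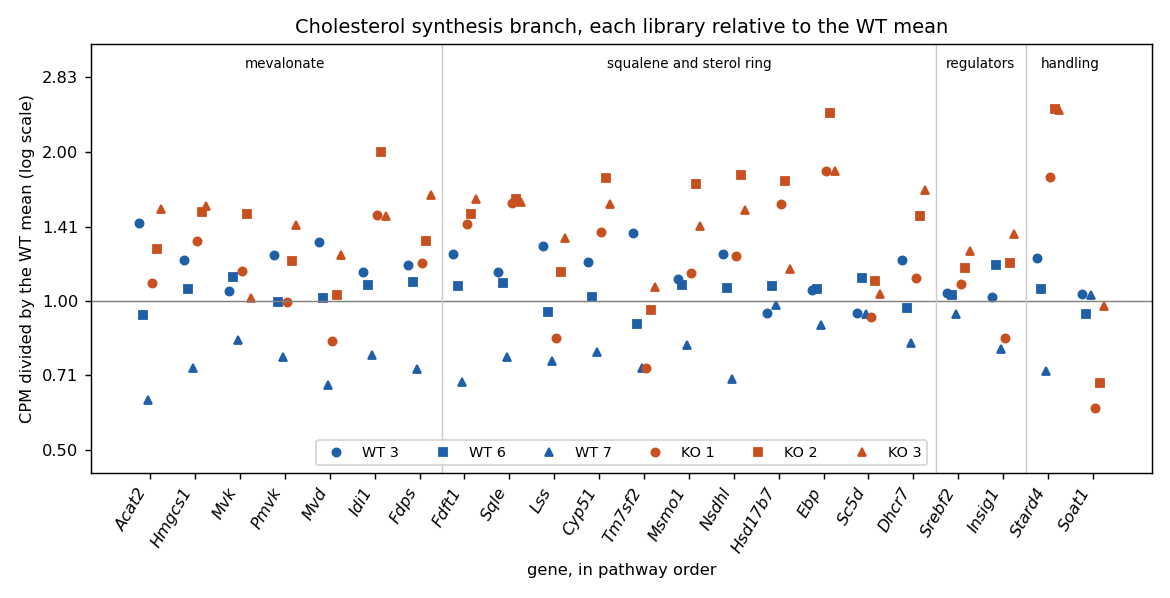
Each point is the CPM of 1 library divided by the WT mean of that gene, on a log scale, for the 22 genes of the cholesterol branch in pathway order. WT libraries are blue and KO libraries orange. In 20 of the 22 genes the lowest WT library was WT 7, and the KO points of Ebp and Stard4 lie furthest above the WT points.

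The first part of the pathway turns acetyl-CoA into the isoprenoid farnesyl diphosphate. Hmgcs1, which makes HMG-CoA, was the most abundant gene of the branch per transcript length, at 104 ± 27.7 FPKM in WT and 158 ± 11.3 FPKM in KO (SD, n = 3 each). Its level was 586, 514 and 356 CPM in the WT libraries (WT 3, WT 6, WT 7) and 642, 734 and 756 CPM in the KO libraries (KO 1, KO 2, KO 3). The groups did not overlap, and the log2 fold change of 0.55 (SE 0.20) did not pass (adjusted p = 0.0768, edgeR). It passed with DESeq2, with limma-voom and without WT 3. Idi1, the isomerase that turns isopentenyl into dimethylallyl diphosphate (chromosome 13, 8885501 to 8892451 on mm10), measured 41.3, 38.9 and 28.0 CPM across WT and 53.8, 72.1 and 53.4 CPM in KO, in the same library order. Every KO library lay above every WT library, and Idi1 rose by 1.66-fold (log2 fold change 0.73, SE 0.19, adjusted p = 0.0305, edgeR). Its call ended without WT 6, WT 7, KO 1 or KO 2.

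The other genes of this segment did not pass. Acat2, the cytosolic thiolase that starts the pathway, spanned 82.4 to 188 CPM in WT alone, wider than its 142 to 200 CPM in KO. The log2 fold change of Acat2 was 0.37 (SE 0.29), and 0.73 without WT 3, where it passed (adjusted p = 0.0335, edgeR). Mvk and Pmvk, the kinases that phosphorylate mevalonate, stood at log2 fold changes of 0.29 (SE 0.19) and 0.27 (SE 0.21). Mvd, the decarboxylase that follows them, stood at 0.04 with a 95% interval from -0.56 to 0.65, so changes of about that size in either direction were not resolved. Fdps, which joins the isoprenoid units into farnesyl diphosphate, had the lowest level of all 30 genes, 1.11 ± 0.288 FPKM in WT and 1.59 ± 0.241 FPKM in KO. Only 73 to 164 reads per library were assigned to Fdps, and the table lists 1 processed pseudogene of it with 0 reads. How reads that match several places were counted is not given in the sources used here, so the level of Fdps is uncertain.

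From farnesyl diphosphate the pathway runs through squalene to the sterol rings, and 3 of its 11 genes rose. Sqle, squalene epoxidase, often a rate-limiting step (chromosome 15, 59315077 to 59331192), was at 161, 153 and 109 CPM in the WT libraries. In KO 1, KO 2 and KO 3 it measured 222, 227 and 224 CPM, a spread of only 2.04 CPM (SD) against 28.2 in WT. Its rise was 1.59-fold (log2 fold change 0.67, SE 0.16, adjusted p = 0.0212, edgeR), and the call ended without WT 6, KO 1 or KO 2. Cyp51, the lanosterol demethylase (chromosome 5, 4081145 to 4104746), went from 167, 142 and 110 CPM in WT to 191, 246 and 219 CPM in KO. It rose by 1.57-fold (log2 fold change 0.65, SE 0.18, adjusted p = 0.0325, edgeR), and lost the call without WT 6, WT 7, KO 2 or KO 3. The span of Cyp51 overlaps Akap9 on the other strand by 166 bases, and Akap9 itself stood at a log2 fold change of 0.07 (SE 0.19).

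Ebp, the sterol isomerase that acts late in the ring steps (chromosome X, 8185329 to 8193512), had the largest change of the synthesis enzymes among the 30 genes. It measured 8.08, 8.13 and 6.87 CPM across WT and 14.1, 18.4 and 14.0 CPM in KO, a 2.02-fold rise (log2 fold change 1.01, SE 0.20, adjusted p = 0.0112, edgeR). The lowest KO library lay well above the highest WT library. Its level was low, at 3.26 FPKM in WT, but it was called whichever library was left out. Ebp and Nsdhl are X-linked, and without WT 7, the library nearly without Xist, Ebp stood at a log2 fold change of 0.93 (adjusted p = 0.0484, edgeR). Nsdhl, the dehydrogenase of the C4 demethylation complex, was at 47.3, 40.4 and 26.4 CPM across WT and 46.8, 68.3 and 57.9 CPM in KO. WT 3 and KO 1 overlapped, and the log2 fold change of Nsdhl, 0.60 (SE 0.24, edgeR adjusted p = 0.0975), became 0.39 without WT 7.

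Fdft1, squalene synthase, showed groups that did not overlap, at 152, 130 and 83.3 CPM across WT and 174, 183 and 195 CPM in KO. It stood at a log2 fold change of 0.60 (SE 0.21, adjusted p = 0.0734, edgeR). Its span overlaps Ctsb, a more counted gene on the other strand that was lower in KO (log2 fold change -0.74), by 774 bases, and with the use of strand not stated the reads there cannot be assigned. Msmo1, the methylsterol oxidase, and Hsd17b7, a reductase of the same demethylation steps, also had all KO libraries above all WT libraries. Their log2 fold changes were 0.51 (SE 0.19, adjusted p = 0.0777) and 0.58 (SE 0.18, adjusted p = 0.0519) by edgeR. Hsd17b7 lay so near the threshold that it passed with DESeq2, with limma-voom and in 5 other alternatives. Dhcr7, the last reductase before cholesterol, stood at 0.51 (SE 0.20, adjusted p = 0.0919, edgeR), with KO 1 at 112 CPM inside the WT range of 83.0 to 122 CPM.

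Not every ring enzyme shared the upward lean. Sc5d, the sterol desaturase one step before Dhcr7, measured 76.3, 89.6 and 76.0 CPM across WT and 74.8, 88.3 and 83.3 CPM in KO. Its log2 fold change was 0.03 with a narrow 95% interval from -0.25 to 0.30. Lss, which closes the ring to lanosterol, spanned 90.5 to 155 CPM across WT and 101 to 161 CPM in the KO libraries (log2 fold change 0.15, SE 0.24). Tm7sf2, a sterol reductase, stood at -0.12 (SE 0.26), and at 0.17 without WT 3. In both Lss and Tm7sf2 the highest WT library was WT 3 and KO 1 lay inside the WT range or at its lower end.

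**Figure D2:**
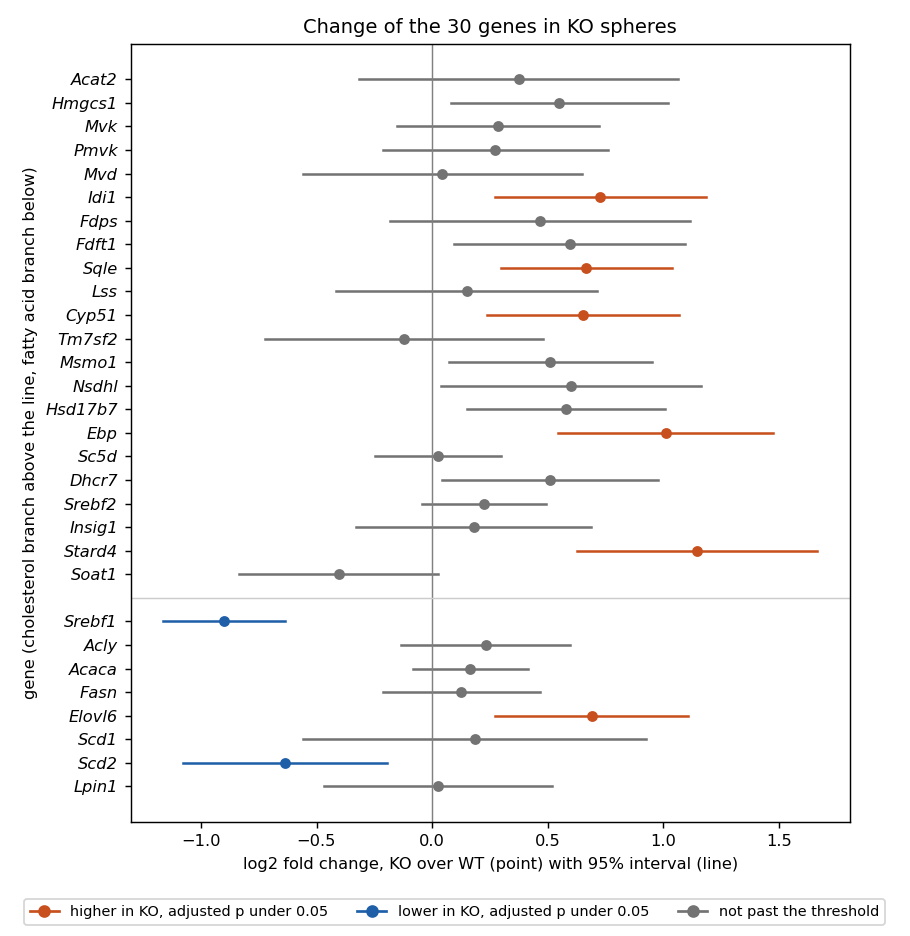
Points are log2 fold changes of KO over WT from the edgeR fit and lines their 95% intervals, for the 22 genes of the cholesterol branch in pathway order above the grey line and the 8 of the fatty acid branch below it. Most cholesterol genes lie right of 0 with intervals that reach or nearly reach it, and Srebf1 and Scd2 are the genes past the threshold on the left.

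Promoter sequences from RefSeq (GRCm38.p6, 250 bases before to 50 after the annotated start) were found for 24 of the 30 genes, 18 of the cholesterol branch and 6 of the fatty acid branch. Sqle, Fdps, Fdft1, Stard4, Scd1 and Scd2 had no entry. SREBP factors are known to bind sterol elements beside the general factor NF-Y, which binds the CCAAT box. The letters CCAAT, on either strand (ATTGG on the reverse), stood in 17 of 18 cholesterol promoters, against 42.8% of the 11509 tested genes with a promoter, and in 3 of 6 fatty acid promoters. Acat2 was the cholesterol gene without them. GGGCGG, the GC box, stood in 17 of 18, against 68.1% of tested genes, and CACGTG, the E-box, in 4 of 18, against 11.3%. The sterol element TCACNCCAC was found in 1 of 18, that of Hmgcs1, against 1.43% of tested genes. Only these exact letters were searched, with N as any base, and only in this window. Variant or more distant elements were not counted, so a promoter without a match may still hold one. Motifs were searched on both strands, and a gene counts if any of its listed promoters holds the letters. These are the promoters of the 4 genes past the threshold as higher that had an entry, and of Hmgcs1 for its sterol element, written 5′ to 3′ on the strand of the gene. Capitals mark each CCAAT or ATTGG and, in Hmgcs1, the sterol element TCACCCCAC, and none of these overlap.
Idi1 (chr13:8885356-8885655, plus strand): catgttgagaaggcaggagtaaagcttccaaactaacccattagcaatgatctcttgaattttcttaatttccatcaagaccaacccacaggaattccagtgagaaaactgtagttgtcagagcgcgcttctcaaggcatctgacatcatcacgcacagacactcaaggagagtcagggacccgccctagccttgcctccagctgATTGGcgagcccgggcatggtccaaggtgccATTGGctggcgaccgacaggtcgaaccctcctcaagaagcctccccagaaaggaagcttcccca
Cyp51 (chr5:4104648-4104947, minus strand): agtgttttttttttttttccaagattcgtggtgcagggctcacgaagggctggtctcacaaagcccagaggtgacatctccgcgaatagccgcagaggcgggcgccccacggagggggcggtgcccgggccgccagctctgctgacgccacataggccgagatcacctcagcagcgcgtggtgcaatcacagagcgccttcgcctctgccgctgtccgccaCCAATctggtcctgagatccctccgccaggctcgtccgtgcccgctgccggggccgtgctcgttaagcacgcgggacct
Ebp (chrX:8193463-8193762, minus strand): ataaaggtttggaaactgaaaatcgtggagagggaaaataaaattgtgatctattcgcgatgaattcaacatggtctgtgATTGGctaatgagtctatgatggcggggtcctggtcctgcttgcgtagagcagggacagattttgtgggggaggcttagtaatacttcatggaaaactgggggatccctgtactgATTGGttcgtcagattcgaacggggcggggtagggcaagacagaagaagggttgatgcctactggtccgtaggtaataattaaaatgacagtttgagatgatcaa
Elovl6 (chr3:129532136-129532435, plus strand): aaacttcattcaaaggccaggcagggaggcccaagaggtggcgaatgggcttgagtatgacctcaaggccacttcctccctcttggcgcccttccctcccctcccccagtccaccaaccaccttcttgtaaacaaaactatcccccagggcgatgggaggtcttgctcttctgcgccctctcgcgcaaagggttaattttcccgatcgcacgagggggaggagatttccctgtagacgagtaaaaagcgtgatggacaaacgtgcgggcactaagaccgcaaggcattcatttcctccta
Hmgcs1 (chr13:119690101-119690400, plus strand): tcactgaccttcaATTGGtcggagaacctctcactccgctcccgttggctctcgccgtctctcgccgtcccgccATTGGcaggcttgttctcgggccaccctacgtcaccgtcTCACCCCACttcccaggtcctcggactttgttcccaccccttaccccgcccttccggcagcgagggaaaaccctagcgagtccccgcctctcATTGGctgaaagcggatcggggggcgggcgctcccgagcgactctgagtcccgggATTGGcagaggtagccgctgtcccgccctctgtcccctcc

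In Hmgcs1 the sterol element begins at position -137 from the start and lies between ATTGG copies at -176 and -45. Idi1 holds ATTGG at -45 and -14, Ebp at -170 and -55, and Cyp51 holds CCAAT at -29. Elovl6, the fatty acid gene called as higher, holds none in this window. A match is a description of the letters and does not show that a factor was bound. Members with and without a call shared the CCAAT letters, since 14 of the 17 cholesterol genes that hold them were not called. With 17 of 18 promoters holding them, the letters could not part called from uncalled genes. Their part in the changes was not tested.

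Neither regulator of the pathway passed the threshold at the RNA level. Srebf2 measured 364, 361 and 330 CPM across WT and 379, 409 and 444 CPM in KO, with no overlap, at a log2 fold change of 0.22 (SE 0.11, edgeR adjusted p = 0.171). Its 95% interval, from -0.04 to 0.49, is among the narrower of the branch. Insig1, which holds SREBP precursors in the endoplasmic reticulum and is itself an SREBP target, spanned 148 to 218 CPM across WT and 155 to 252 CPM in the KO libraries (log2 fold change 0.18, SE 0.21). Protein cleavage, the step at which these factors are mainly controlled, is not measured by RNA counts.

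The genes of sterol handling parted. Stard4, a carrier that moves cholesterol between membranes (chromosome 18, 33199355 to 33213862), measured 50.1, 43.3 and 29.6 CPM across WT and 73.0, 100 and 99.4 CPM in KO. The lowest KO library lay above the highest WT library, and Stard4 rose by 2.22-fold (log2 fold change 1.15, SE 0.22, adjusted p = 0.0106, edgeR), the largest change among the 30 genes. It was called whichever library was left out, with log2 fold changes from 0.95 to 1.32. Soat1, which esterifies cholesterol for storage, was at 78.5, 71.4 and 78.0 CPM across WT and 46.2, 51.8 and 74.3 CPM in KO. KO 3 lay inside the WT range while KO 1 and KO 2 lay below it. The log2 fold change of Soat1, -0.40 (SE 0.18, edgeR adjusted p = 0.134), passed only without KO 3, at -0.62, and with limma-voom.

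The libraries of 1 group were ordered alike across the cholesterol branch. WT 7 was the lowest WT library in 20 of 22 genes, against 31.1% of all tested genes, and WT 3 the highest in 17, against 40.6%. KO 1 was the lowest KO library in 18 of 22, against 34.4%. The median ratio to the WT mean was 1.19 in WT 3, 1.06 in WT 6 and 0.774 in WT 7, and it was 1.14 in KO 1, 1.49 in KO 2 and 1.45 in KO 3. WT 3 and KO 1 therefore stood at about the same level of the branch. Summed over the 22 genes, WT 3 reached 2784 CPM and KO 1 2766 CPM, with KO 2 and KO 3 at 3319 and 3424 CPM and WT 6 and WT 7 at 2488 and 1896 CPM.

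The number of calls moved with the library left out. Without WT 3 there were 10 genes higher, and without WT 6, WT 7, KO 1 or KO 2 there were 2, 3, 3 and 2. Without KO 3 there were 5 higher and 1 lower. Without WT 7 the median log2 fold change fell to 0.32, from 0.49, and 17 of 22 genes were above 0. The 5 libraries of that fit each held at least 23632 Xist reads. Of the 8 called genes in both branches, 3 were called in all 6 fits that left out 1 library, namely Ebp, Stard4 and Srebf1.

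**Figure D3:**
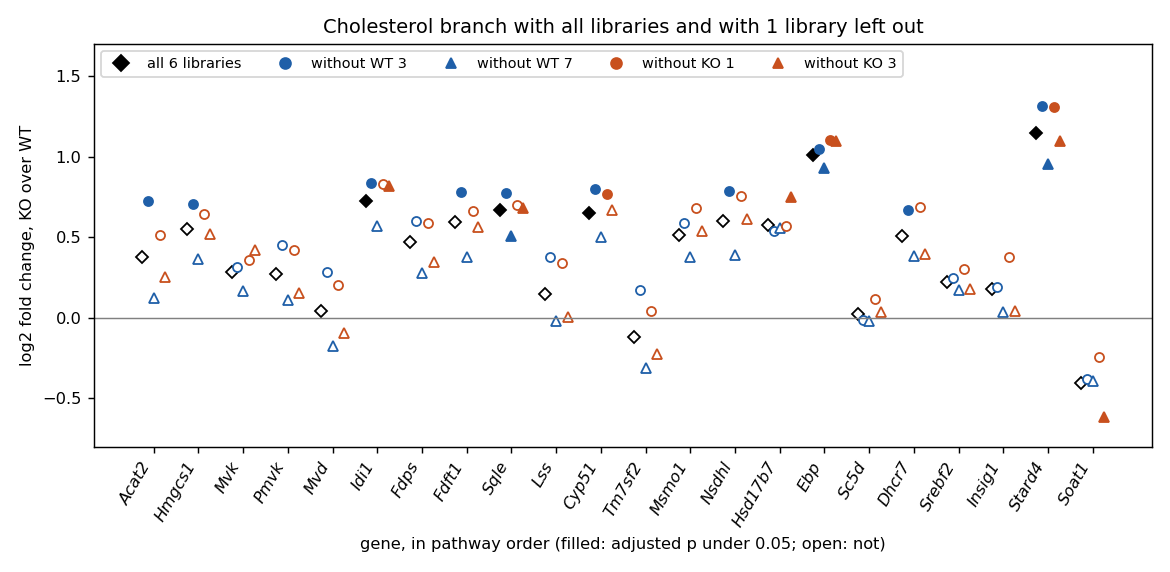
Log2 fold changes of KO over WT for the 22 cholesterol genes with all 6 libraries and with WT 3, WT 7, KO 1 or KO 3 left out. Filled symbols passed an adjusted p of 0.05 and open symbols did not. The median is 0.32 without WT 7 and 0.60 without WT 3, against 0.49 with all libraries.

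In the fatty acid branch the regulator Srebf1 and the main desaturase fell and an elongase rose, while the enzymes that build palmitate did not pass the threshold. Of 8 genes 1 rose, Elovl6, and 2 fell, Srebf1 and Scd2, and the median log2 fold change was 0.15. With 29% of all tested genes called, 13.5% higher and 15.5% lower, the count of 3 in 8 is not by itself a result about the branch, and it was 1, that of Srebf1, without WT 6, WT 7, KO 1 or KO 2. Srebf1, the gene of SREBP1 (chromosome 11, 60199089 to 60222581), measured 361, 362 and 424 CPM across WT and 198, 206 and 211 CPM in KO. All KO libraries lay close together and far below WT, a 1.87-fold fall (log2 fold change -0.90, SE 0.11, adjusted p = 0.00273, edgeR). The call held under all 16 alternatives, between -0.94 and -0.82. Its span overlaps Rai1 on the other strand by 109 bases, and Rai1 did not pass (log2 fold change -0.32, SE 0.12).

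The ratio of Srebf2 to Srebf1 did not overlap between the groups. In FPKM, a scale per transcript length, it was 0.790, 0.781 and 0.611 in the WT libraries and 1.5, 1.56 and 1.65 in the KO libraries, in library order. Srebf1 was thus the more abundant of the pair in each WT library and Srebf2 in each KO library. No test is given for the ratio, since with 3 libraries a group the smallest p of an exact permutation test is 0.1. The counts cover whole genes and do not part the isoforms of Srebf1.

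Scd2, the stearoyl-CoA desaturase typical of developing brain, was by far the most abundant of the 30 genes, at 866 ± 12.2 FPKM in WT and 580 ± 81.9 FPKM in KO (SD, n = 3 each). In CPM (chromosome 19, 44293676 to 44306864) it measured 4696, 4840 and 4948 in WT and 2604, 3157 and 3560 in KO. WT libraries lay within a narrow band and every KO library below it, a 1.55-fold fall (log2 fold change -0.64, SE 0.19, adjusted p = 0.0423, edgeR). The call was a marginal one and ended without WT 6, WT 7, KO 1, KO 2 or KO 3, where the log2 fold change lay between -0.73 and -0.50. It also ended with scaling by library totals. Scd1, its neighbour on chromosome 19 and the desaturase typical of liver and fat, measured 331, 278 and 162 CPM across WT and 195, 362 and 319 CPM in KO. Its groups overlapped widely (log2 fold change 0.19, 95% interval -0.56 to 0.93), and it followed the WT order seen in the cholesterol genes. Scd2 exceeded Scd1 by 12.6 to 27 times in WT and by 7.72 to 11.8 times in KO, in FPKM. Both genes are close paralogs, and reads that match both may have been split or dropped in counting.

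**Figure D4:**
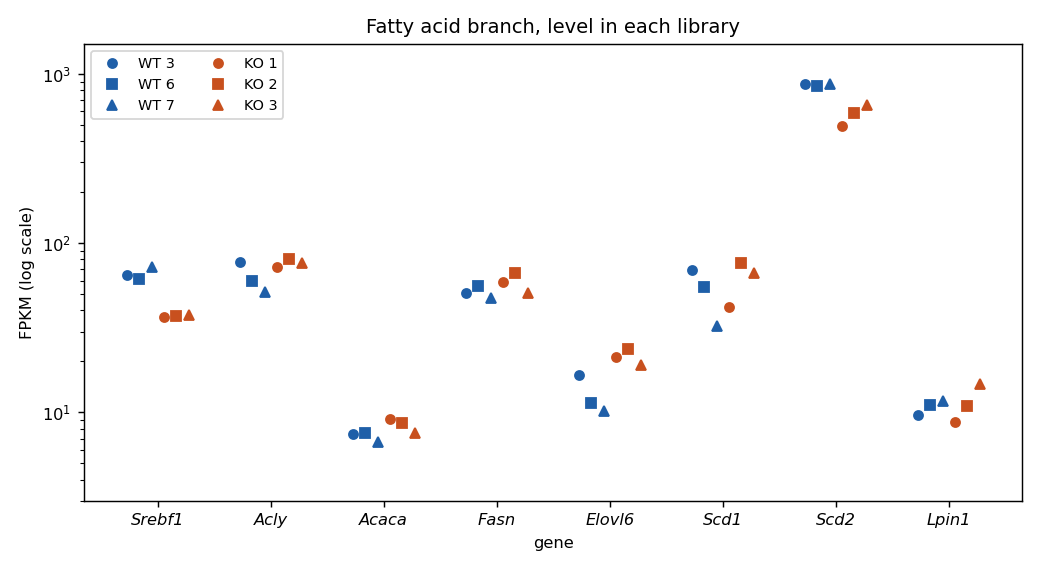
FPKM of the 8 fatty acid genes in each library, on a log scale, with WT in blue and KO in orange. Srebf1 and Scd2 separate the groups with KO below WT and Elovl6 with KO above WT, while the other 5 genes overlap or, in Acaca, lie edge to edge. By CPM, 1 of the 8 lay wholly above WT and 2 wholly below, where 23.5% and 25.2% of tested genes did. These counts are not by themselves a result about the branch.

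Acly, which makes cytosolic acetyl-CoA for both branches, was at 404, 327 and 280 CPM across WT and 370, 416 and 402 CPM in the KO libraries (log2 fold change 0.23, SE 0.15). Acaca, the carboxylase that makes malonyl-CoA, stood at 0.17 with a 95% interval from -0.08 to 0.41. Fasn, fatty acid synthase, measured 550, 636 and 541 CPM across WT and 620, 714 and 551 CPM in KO, at 0.13 with an interval from -0.21 to 0.47. Those intervals leave out changes as large as that of Srebf1 in either direction. Elovl6, the elongase that extends palmitate (chromosome 3, 129532355 to 129638495), measured 105, 76.3 and 68.4 CPM across WT and 132, 149 and 122 CPM in KO. It rose by 1.61-fold with no overlap (log2 fold change 0.69, SE 0.18, adjusted p = 0.0272, edgeR), and its call ended without WT 6, WT 7, KO 1 or KO 2. Lpin1, a phosphatidate phosphatase of lipid assembly, stood at 0.03 (SE 0.21), and KO 3 was its highest library at 141 CPM.

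Summed over the 8 genes, the branch stood at 6697 ± 60.1 CPM across WT and 5013 ± 581 CPM across KO (SD, n = 3 each). Without Scd2 the sums were 1868 ± 137 and 1906 ± 177 CPM, so that the lower total lay in Scd2.

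Other genes of the same pathways were read from lists. Of 23 tested companions of the cholesterol branch, which cover uptake, SREBP processing, side branches and NF-Y subunits, 9 rose and 3 fell, with a median log2 fold change of 0.17, where 13.5% of all tested genes rose and 15.5% fell. These counts were 4 and 1 without WT 6, 5 and 1 without WT 7 or KO 2, and 6 and 2 without KO 1. Lbr, a sterol reductase of the nuclear envelope with the same step as Tm7sf2, rose from 28.4 ± 6.5 to 59.0 ± 5.23 CPM (SD, n = 3 each; log2 fold change 1.06, SE 0.18, adjusted p = 0.00694, edgeR). Tm7sf2 itself did not pass. Nfya, a subunit of NF-Y that was chosen with its values in view, rose by 0.91 (SE 0.18, adjusted p = 0.0124, edgeR), and its call ended without WT 6. The other NF-Y subunits did not pass, Nfyb at 0.20 (SE 0.12, adjusted p = 0.235) and Nfyc at 0.17 (SE 0.13, adjusted p = 0.337) by edgeR. Npc1, which exports cholesterol from lysosomes, fell from 256 ± 50.7 to 96.3 ± 10.4 CPM (log2 fold change -1.41, SE 0.17, adjusted p = 0.00273, edgeR).

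Genes of sterol turnover and export moved in both directions. Of 11 tested, 2 rose and 4 fell, with a median of -0.17, where 13.5% of all tested genes rose and 15.5% fell. None rose without WT 6, WT 7 or KO 1, 1 rose without KO 2 or KO 3 and 3 without WT 3, and the median was 0.24 without WT 3, 0.10 without KO 2 and 0.06 with DESeq2 or without KO 3, over 12 or 13 tested genes. Apoe, the lipid carrier of glia, fell from 3831, 9151 and 10196 CPM in WT to 370, 773 and 649 CPM in the KO libraries (log2 fold change -3.69, SE 0.47, adjusted p = 0.00299, edgeR). Abca1, which loads cholesterol onto it, fell by 2.44 (SE 0.41), Cyp46a1, the brain enzyme that hydroxylates cholesterol for removal, by 1.55 (SE 0.23), and the sterol sensor Nr1h2 by 0.53 (SE 0.09), all on the log2 scale. Each of these 4 falls was called whichever library was left out.

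Of 24 tested companions of the fatty acid branch 4 were higher and 5 lower, with a median of -0.07. Over all tested genes 13.5% were higher and 15.5% lower, so these counts are not by themselves a result about the list. The counts were 1 and 3 without WT 6 or WT 7, 2 and 3 without KO 2, 3 and 3 without KO 1, and 3 and 8 without WT 3. Fads1 and Fads2, the desaturases of polyunsaturated fatty acids, fell by 1.11 (SE 0.20) and 1.19 (SE 0.16) on the log2 scale, Fads2 from 743 ± 70.7 to 326 ± 49.8 CPM. Elovl7, an elongase, fell by 2.02 (SE 0.31), while Hacd1, a dehydratase of elongation, rose by 1.15 (SE 0.16). In glycerolipid assembly, 2 of 13 genes fell, and 1 without WT 6, WT 7, KO 1 or KO 2. As 15.5% of all tested genes fell, that count is not by itself a result about the list. Gpam, which starts glycerolipid synthesis, went from 88.7, 208 and 240 CPM in WT to 41.7, 37.2 and 38.7 CPM in the KO libraries (log2 fold change -2.19, SE 0.35, adjusted p = 0.00553, edgeR), and Pnpla2, a triglyceride lipase, fell by 0.74 (SE 0.17), a call that ended without WT 6, WT 7, KO 1 or KO 2.

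Some lists of markers of other cell types also differed between the groups, and others had few or no calls. Beside the counts below, 13.5% of all tested genes were called higher and 15.5% lower. Oligodendrocyte markers fell in 12 of 16 genes, with summed levels of 5034 to 6652 CPM across WT and 1187 to 2201 CPM in KO. With 1 library left out 9 to 12 of them fell, and 1 rose without WT 3. Astrocyte markers fell in 9 of 12, from summed levels of 3407 to 9893 CPM in WT, where WT 3 was lowest, to 1539 to 2435 CPM in KO. The number of astrocyte markers that fell was 7 to 10 with 1 library left out. Cycling cell markers rose in 10 of 10, from 214 to 380 CPM in WT, where WT 3 was highest and WT 7 lowest, to 1915 to 2525 CPM in KO. Neuron markers summed to 1539 to 2861 CPM in WT, again with WT 3 highest and WT 7 lowest, and to 2907 to 4325 CPM in KO, where KO 1 was highest. Of the 12 neuron markers 1 passed as higher, with 5 by DESeq2, 9 without WT 3 and 0 without WT 6, WT 7, KO 1 or KO 2. Microglia and endothelial markers summed to at most 23.9 and 7.48 CPM, with 0 of 4 tested microglia genes called and 1 of 3 endothelial genes lower. Mural and meningeal markers, of which 2 of 9 rose (1 without WT 3, WT 6 or WT 7, 3 without KO 2 or KO 3, 5 of 10 with DESeq2), summed to 96.2 to 128 CPM across WT and 158 to 618 CPM in KO, with KO 1 highest. No marker of any list was at 0 in all 6 libraries. In bulk RNA, fewer cells of a type and less RNA per cell cannot be told apart, and the part of these markers in the values of the synthesis genes was not tested.

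**Figure D5:**
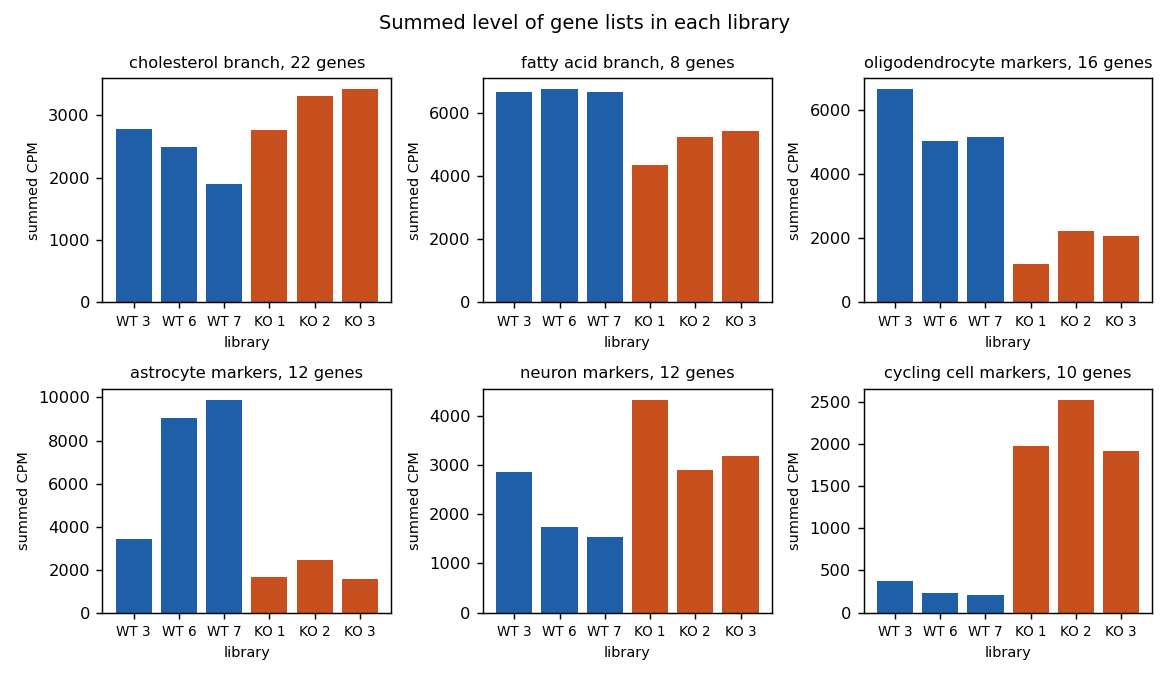
Bars give the summed CPM of each gene list in each library, WT in blue and KO in orange, with axes from 0. The cholesterol branch orders the WT libraries as WT 3, WT 6 and WT 7, as the cycling and neuron markers do. Among KO libraries, KO 1 is lowest for the branch and highest for neuron markers. KO 3 is highest for the branch and lowest for cycling markers. Oligodendrocyte markers, like the branch, are highest in WT 3 within WT and lowest in KO 1 within KO. Astrocyte markers are lowest in WT 3 within WT. What lies behind these orders was not tested. The fatty acid sum, which is mostly Scd2, is lower in every KO library.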

How the data were processed

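RNA was sequenced from 6 neurosphere libraries, 3 WT and 3 KO, each placed in its group by its title. Libraries were made from 3 µg of RNA, per the labels' protocols. Tools listed by the submitters' processing notes are HISAT2 2.0.5 together with featureCounts 1.5.0-p3 and also DESeq2 1.16.1, with mm10 as build. Settings, annotation and strand use are not stated. The deposited table held whole-number read counts per gene, which the authors had not normalised, and FPKM values deposited by the authors beside them. The headers call both sets counts, and the FPKM unit was taken from the values. With gene length and library total, the FPKM gave back the counts within 0.05 reads in all 180 values of the 30 genes.

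Counts were scaled by TMM, filtered by the filterByExpr defaults (16606 genes) and tested with edgeR 4.0.16 in R 4.3.3, with the two-sided quasi-likelihood F test, no covariates, and Benjamini-Hochberg adjustment over all tested genes at 0.05. CPM values carry the TMM scaling. The SE is the log2 fold change divided by the square root of F, and 95% intervals use the degrees of freedom of that test. The biological coefficient of variation was 26.5%. The fit was checked on simulated data. Every pair of libraries of a group differed by more than sampling noise, with chi-square over its degrees of freedom of 17.8 or more. The floor of 3 reads covers counting error only.

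Alternatives were RLE factors, library totals, no filter, 1 CPM in 3 libraries, DESeq2 1.42.0, limma-voom (limma 3.58.1) with sample weights, limma for genes with a mean FPKM of 0.5 or more on log2(FPKM + 1) or log2(FPKM + 0.1), the former also without that filter, edgeR's test against 1.5-fold, and leaving out each library. Fold changes on log2(FPKM + pseudocount) understate the change of low genes. All 30 genes are named, with Ash2l, up to 4 genes of lowest p per pathway list and up to 3 per marker list. Some genes of the lists are not reported here, and counts include them. The members and lists were chosen with earlier results of these data known. Overlapping genes had over 10% of the count of the member whose span they overlap. That of Npc1 overlaps Rmc1.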

Additional observations from a re-analysis of the deposited data

How the results depend on the processing

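The count of genes called across the table, 4812, became 8052 with limma-voom and 1522 when tested against a 1.5-fold change, and ran from 2178 to 6641 when 1 library was left out. The 5 calls of the cholesterol branch became 8 with DESeq2, 12 with limma-voom, 3 on log2(FPKM + 1) without a filter and 0 against a 1.5-fold change, and ran from 2 to 10 with 1 library left out. The 3 calls of the fatty acid branch became 1 on log2(FPKM + 1) without a filter and 1 against a 1.5-fold change, that of Srebf1, and ran from 1 to 3 with 1 library left out. The 70 calls over the companion and marker lists became 84 with DESeq2 and ran from 46 to 82 with 1 library left out. The members that lost their call against 1.5-fold had estimated changes above 1.5-fold, from 1.55-fold in Scd2 to 2.22-fold in Stard4. In edgeR's test against 1.5-fold, Stard4 reached an adjusted p of 0.062 and Ebp 0.0847. The cause of these differences between settings was not tested. Among the 30 genes, 14 of 480 values changed sign, all in genes that were not called. With limma-voom these were Tm7sf2 at 0.0586, Sc5d at -0.0226 and Lpin1 at -0.12. The others came from leaving out 1 library, which moved Mvd from -0.18 to 0.29, Lss from -0.022 to 0.38, Tm7sf2 from -0.31 to 0.17, Sc5d from -0.0251 to 0.12, Scd1 from -0.0644 to 0.43 and Lpin1 from -0.19 to 0.22 (lowest to highest). Without WT 7 the signs of Mvd, Lss, Sc5d and Scd1 turned. No paired analysis was made, because the labels do not say that equal replicate numbers pair libraries. The groups share only 1 such number. With 3 libraries a group, the 95% intervals limit what these counts can resolve.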
